A study of Homo sapiens with 18 samples.

Results

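Chromatin accessibility was examined at 9 genes whose products are used as serum or cell surface markers of ovarian cancer: MUC16, MSLN, WFDC2, SLPI, LCN2, MUC1, SLC34A2, FOLR1 and CD24. Every window of the deposited table that overlapped the span of one of these genes, extended by 10 kb on each side, was taken as a member, with gene spans from GENCODE release 44 on GRCh37 (hg19). This gave 49 of the 89428 windows of the table, each 1000 bp long, and they belonged to 7 of the 9 genes. The table holds windows selected on level, each with 2 or more libraries above 2 FPKM, so a window could enter through 1 line and is then favoured to be lower in the others. MSLN had 17 windows, MUC1 11, LCN2 7, MUC16 6, WFDC2 3, SLC34A2 3 and SLPI 2. FOLR1, the folate receptor targeted by antibody conjugates, spans chr11:71900602-71907367, and none of the 31 tiling windows over its extended span was among the windows analysed here. CD24, a glycosylated surface protein, was not analysed here because the annotation used holds no entry for it. A window was called a promoter window when its centre lay from 1 kb upstream to 100 bp downstream of a protein-coding start. A window that held the canonical start of a protein-coding gene was also called one, wherever its centre lay. Of the 49 windows, 12 were promoter windows of the named genes, 4 were promoter windows of an overlapping or neighbouring gene, and 33 were distal.

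ATAC-seq, in which the Tn5 transposase cuts and tags open chromatin, gave 18 libraries, 3 from each of 6 established lines of human ovarian cancer. The lines form 3 pairs that differ in platinum sensitivity, with A2780, PEA1 and PEO1 labelled sensitive and their partners CP70, PEA2 and PEO4 labelled resistant. CP70 was derived in culture from A2780, and both are labelled as endometrial/ovarian cancer cells. The PEA and PEO pairs are high-grade serous lines, each pair isolated from 1 patient before and after resistance arose, so each pair has a single origin. The labels name no treatment, and all lines were grown in RPMI-1640 with fetal bovine serum. The labels do not say that the 3 libraries of a line came from separate cultures, so p-values measure the spread between these libraries, which may be technical.

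As background, MUC16 carries CA125, the antigen followed in serum during ovarian cancer treatment, and mesothelin, the product of MSLN, is a membrane-anchored protein that binds MUC16 and is also shed. WFDC2 encodes HE4, a small secreted protein with whey acidic protein domains that is measured alongside CA125. SLPI is a secreted inhibitor of leukocyte serine proteases, and LCN2 encodes lipocalin 2, which binds iron-loaded siderophores. MUC1 is a membrane mucin of glandular epithelium, and SLC34A2 encodes the sodium-phosphate cotransporter NaPi2b. All of these genes are active in glandular or secretory epithelia, whereas accessibility of their DNA was measured here and not their RNA or protein.

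The deposited FPKM values were reads per window scaled to the library total, and the libraries differed in how much of that total lay in the table. The implied totals ran from 8972042 to 60495462 reads, and the share of reads in the windows ran from 9.25% ± 0.832 (SD, n = 3) in A2780 to 39.9% ± 0.948 in PEO1. The median window held 0.68 FPKM in A2780 and 0.85 in CP70, against 1.20 and 1.78 in PEA1 and PEA2 and 2.85 and 2.24 in PEO1 and PEO4. Each library is a bulk sample, in which fewer open cells and less open chromatin per cell cannot be told apart. A difference in FPKM between lines contains this difference in scale, and the percentile of a window among all 89428 windows of its line is given beside its FPKM. The promoter window of PAX8, a transcription factor of Mullerian epithelium, held 0.61 FPKM in A2780 and 0.90 in CP70, at percentiles 45.4 and 51.9, and 3.37, 2.47, 7.90 and 5.6 in PEA1, PEA2, PEO1 and PEO4. The promoter window of PTPRC, which marks leukocytes, was not among the windows analysed here.

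Sequence upstream of the WFDC2 start and of the upstream MUC16 start is shown because the promoter windows that hold it separated the lines, as described below. Each run is the 150 bases before the transcript start in GRCh37, read 5′ to 3′ on the strand of the gene, and capitals mark a match on either strand to one of 8 short motifs.
WFDC2 (chr20:44098243-44098392, + strand): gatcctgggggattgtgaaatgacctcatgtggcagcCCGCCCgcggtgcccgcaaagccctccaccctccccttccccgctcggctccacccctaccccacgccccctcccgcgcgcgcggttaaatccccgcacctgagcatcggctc
MUC16 (chr19:9121067-9121216, − strand): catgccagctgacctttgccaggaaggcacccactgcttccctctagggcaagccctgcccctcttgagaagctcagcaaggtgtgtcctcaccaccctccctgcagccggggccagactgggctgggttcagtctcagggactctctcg

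The motifs searched were those of TEAD factors (GGAATG), C/EBP (TTGCNNAA), SP/KLF (GGGCGG), AP-1 (TGANTCA), the TATA box (TATAAA), ETS (CCGGAAG), GRHL (AACCNGTT) and, by name only, NF-kB. The WFDC2 run held the SP/KLF letters beginning 113 bases before the start, which 52.5% of 19812 protein-coding promoters held in the same stretch, and the MUC16 run held none of the 8. Among other starts, LCN2 held AP-1, C/EBP and TEAD letters, which 2.84%, 3.92% and 5.35% of promoters held, SLC34A2 held C/EBP and TEAD letters, and MUC1 held 4 SP/KLF matches, 3 of them overlapping, the TEAD letters, and the TATA box letters beginning 24 bases before its start. Of the printed runs WFDC2 had 14 CpG dinucleotides and MUC16 2, where the median of all promoters was 12. Over the whole 1000-bp windows, 1 of the 12 promoter windows of the marker genes was CpG-rich (GC over 50% with an observed to expected CpG ratio over 0.6), namely the SLC34A2 window at its canonical start, whereas 65.5% of the 21075 promoter windows of the table were.

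The first question was how the 6 lines differed at each gene. A window was said to differ when the moderated F test of limma over the 18 libraries gave an adjusted p below 0.001 and the line means spanned more than 2 on the log2(FPKM + 0.1) scale. Of the 49 windows, 48 had a mean above 1 FPKM and were tested, and 31 of these differed, where 71.4% of all 74141 windows tested did. Lines next to each other in level were compared by contrasts of the same fit at adjusted p below 0.05. Of all windows, the share passing in contrasts with A2780 was 34.2% for CP70, 57.3% for PEA1, 67.8% for PEA2, 86.9% for PEO4 and 90.4% for PEO1. With CP70 it was 50.9% for PEA1, 68.4% for PEA2, 82.5% for PEO4 and 86.1% for PEO1. It was 51.2% between the PEO lines, 57.6% between the PEA lines, 82.5% and 78.8% for PEA1 and PEA2 with PEO1, and 76.7% and 75% for PEA1 and PEA2 with PEO4. Among the promoter windows 9 of 12 differed, and among the distal windows 20 of 32. With a pseudocount of 1 in place of 0.1 the 31 became 9, and the share of all windows under that setting is not given here. PEO4 had the highest FPKM in 8 of the 12 promoter windows and A2780 the lowest in 8, whereas by percentile PEO4 was highest in 3 and A2780 lowest in 2. In the table as a whole PEO1 was the highest line by FPKM in 47.0% of windows and PEO4 in 26.8%, and A2780 was the lowest in 39.5%. After each library was centred on its median, the range of line means was 3.25 at the MSLN promoter, 2.14 at the MUC16 promoter window chr19:9120601-9121600, 2.11 at the WFDC2 start, 2.15 at the SLPI promoter, 1.36 at the SLC34A2 start and 1.38 at the LCN2 start, lower than before centring in each case and under 2 in the last pair. In the 33 distal windows the order was different, with PEA1 highest in 10 and PEO1 lowest in 11, and the median percentile of these windows was 68.2 in A2780, 69.7 in CP70 and 72.5 in PEA1, but 22.0, 17.96 and 30.9 in PEA2, PEO1 and PEO4. Of the 33, 16 lay at MSLN and 7 at MUC1, so these values mostly describe those genes. Only with the PEA1 libraries did 6 of the MSLN windows pass 2 FPKM in 2 libraries, which favoured PEA1 there.

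**Figure D1:**
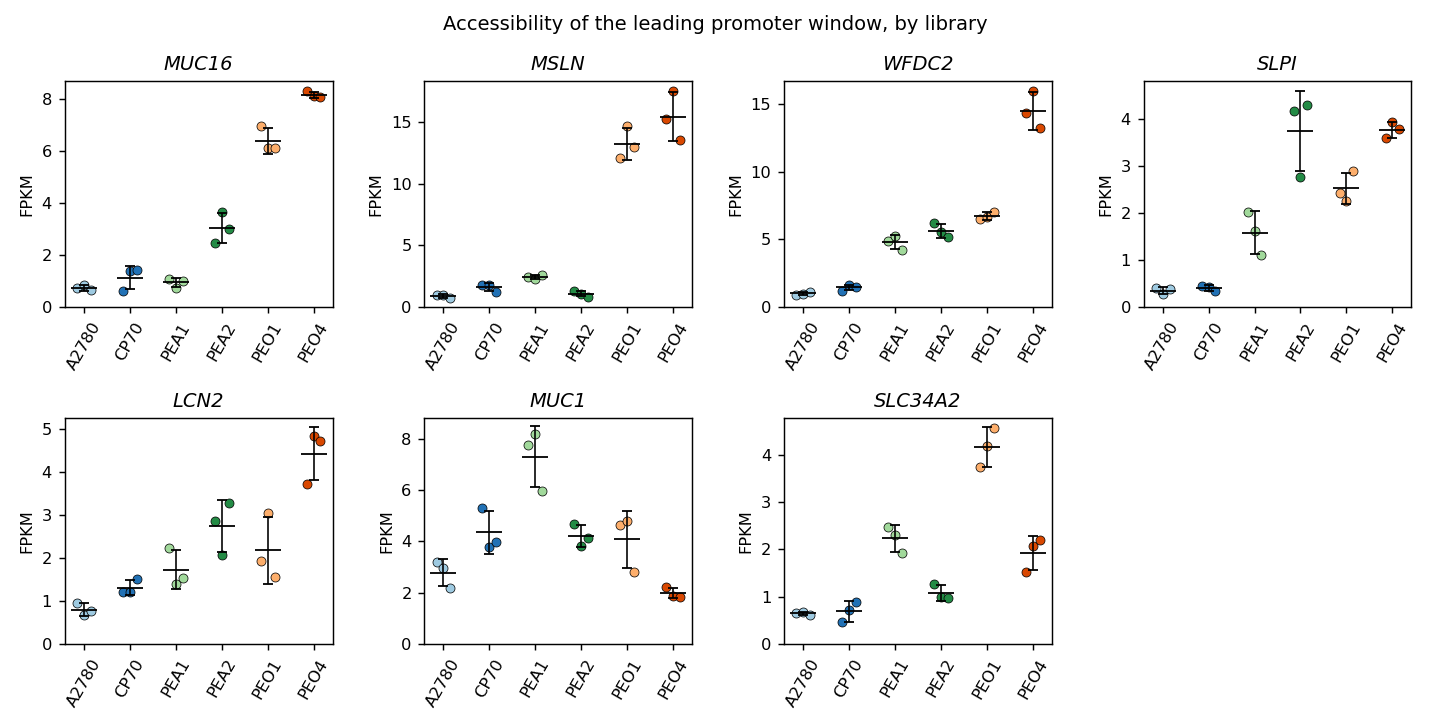
FPKM in each of the 18 libraries (points) for the promoter window with the highest mean of each of 7 genes, with the mean and SD of 3 libraries per line; each panel has its own linear axis from 0. MSLN was high in PEO1 (12.04 to 14.7) and PEO4 (13.5 to 17.5) and at most 2.64 in any other library, while MUC1 was highest in PEA1 and lowest in PEO4.

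MUC16 showed open chromatin away from the start of its canonical transcript. The window holding that start was not among the windows analysed here, and both promoter windows lay at the start of a longer annotated transcript, 29.1 kb and 30.0 kb upstream by their centres. The stronger, chr19:9120601-9121600, covers the first exon of that transcript, and its libraries held 0.71, 0.86 and 0.64 FPKM in A2780, 0.61, 1.38 and 1.42 in CP70, 1.09, 0.75 and 1.01 in PEA1 and 2.47, 3.64 and 3.02 in PEA2. They held 6.98, 6.11 and 6.13 FPKM in PEO1 and 8.31, 8.11 and 8.07 in PEO4. All PEA2 and PEO libraries were above all libraries of A2780, CP70 and PEA1, and the line means spanned 3.31 on the log2 scale (adjusted p = 1.68e-23). In order of level PEO4 and PEO1 did not differ at adjusted p below 0.05 in the fit of 6 lines, PEO1 was above PEA2 and PEA2 above CP70, and CP70, PEA1 and A2780 followed without a difference between neighbours.

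The other promoter window of MUC16, chr19:9121501-9122500, was lower, with means from 0.44 FPKM in PEA1 to 2.34 in PEO4. The leading distal window lay 37.2 kb upstream of the canonical start, outside the gene (chr19:9128701-9129700), and held 7.06 ± 0.569 FPKM (SD, n = 3) in PEO1 and 4.91 ± 0.227 in PEO4 against 0.39 ± 0.071 in A2780, 0.67 in CP70, 1.16 in PEA1 and 0.88 in PEA2. PEA2, which was high at the promoter window, ranked at percentile 22.0 there and at 80.1 at the promoter window. MUC16 and MUC1 encode proteins with long tandem repeats, and only uniquely aligned reads were counted. The part of this in the few windows over the gene bodies was not tested.

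MSLN had the widest range of any promoter window of the 7 genes. The window over its start, chr16:810001-811000, held 12.04, 14.7 and 12.9 FPKM in the libraries of PEO1 and 15.2, 17.5 and 13.5 in those of PEO4. The libraries held 2.40, 2.27 and 2.64 in PEA1, 1.26, 1.10 and 0.84 in PEA2, 1.82, 1.80 and 1.21 in CP70 and 0.96, 0.97 and 0.69 in A2780. No library of the other 4 lines came near the PEO libraries, and the range of line means was 4.0 on the log2 scale (adjusted p = 1.08e-29). PEO4 and PEO1 did not differ from each other (log2 difference 0.22, adjusted p = 0.395 in the fit of 6 lines), and PEO1 was above the next line, PEA1, by 2.39 on the same scale (adjusted p = 1.43e-15).

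The MSLN promoter also stood out against its own gene in the PEO lines. Within each library the promoter window was divided by the median of the 16 distal windows of MSLN. This measure was chosen after the values had been seen. The library total cancels in it, but the share of reads lying in the windows may not. That share was 39.9% in PEO1, 34.4% in PEO4 and at most 18.9% in the other lines. Its part in the ratio was not tested. The distal windows were also selected on level. Most of the 16 had no PEO library above 2 FPKM, and 6 passed 2 FPKM in 2 libraries only with the PEA1 libraries. This selection favoured a lower distal median in the PEO lines, and its part in the ratio was not tested either. The ratio was 13.3 ± 0.632 (SD, n = 3) in PEO1 and 11.7 ± 0.566 in PEO4, and it was 0.82 ± 0.235 in A2780, 0.97 ± 0.193 in CP70, 1.08 ± 0.027 in PEA1 and 1.49 ± 0.522 in PEA2. The lowest PEO library had a ratio of 11.03 and the highest library of the other lines 2.09, so the groups did not overlap. In A2780, CP70 and PEA1 the median distal window held 1.11, 1.65 and 2.25 FPKM, about as much as the promoter window. In the PEO lines the window 666 bp downstream of the start was still at 10.7 and 10.5 FPKM, whereas the window at 5.17 kb held 0.17 FPKM in PEO1 and 0.67 in PEO4.

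**Figure D2:**
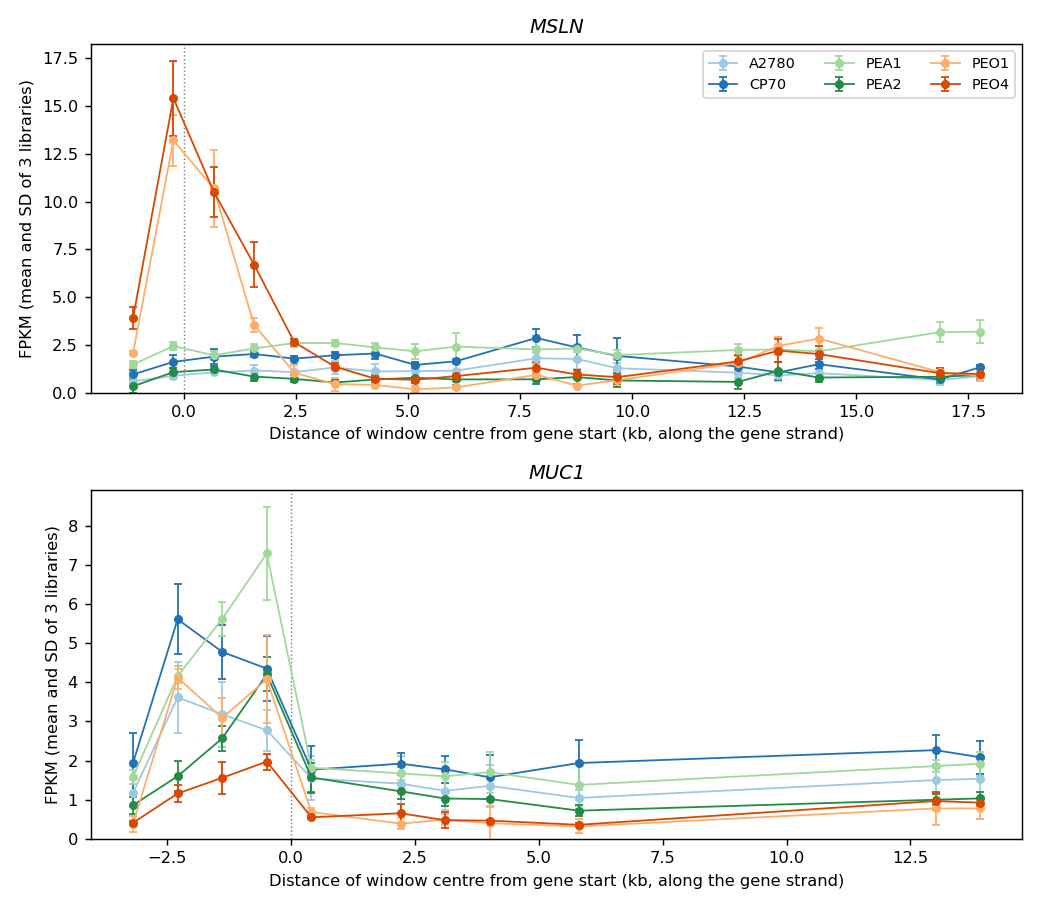
Mean FPKM ± SD of 3 libraries per line in every window of MSLN (17 windows) and MUC1 (11 windows), against the distance of the window centre from the gene start in kb along the gene strand; linear axes start at 0. PEO1 and PEO4 show a peak at the MSLN start that falls away within about 3.37 kb, where PEA1 (2.60 FPKM) is above both, and at MUC1 the signal of every line is higher just upstream of the start than within the gene.

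WFDC2 was lower in A2780 and CP70 than in the serous lines. The window over its start, chr20:44098201-44099200, held 14.3, 15.9 and 13.2 FPKM in PEO4, 6.47, 6.63 and 7.02 in PEO1, 6.21, 5.55 and 5.19 in PEA2 and 4.87, 5.23 and 4.22 in PEA1. It held 1.21, 1.62 and 1.51 FPKM in CP70 and 0.89, 0.99 and 1.12 in A2780. All libraries of the 4 serous lines were above all libraries of A2780 and CP70, PEO4 was above PEO1, and PEO1, PEA2 and PEA1 followed without a difference between neighbours (range 3.73 on the log2 scale, adjusted p = 2.55e-26). The percentile was 94.7 and 96.1 in PEA1 and PEA2 and 81.0 and 95.9 in PEO1 and PEO4, against 65.8 in A2780 and 66.0 in CP70. PEO1 thus ranked below both PEA lines although its FPKM was higher. By FPKM, the adjoining upstream window (chr20:44097301-44098300) and the window 1.21 kb into the gene had the same lowest lines, A2780 and CP70, and the same highest, PEO4 at 5.96 ± 0.377 and 8.20 ± 1.00 FPKM (SD, n = 3). At the upstream window, however, PEA1 and CP70 did not differ (log2 difference 0.27, adjusted p = 0.303 in the fit of 6 lines). By percentile PEO1 was lowest there, at 44.8, below A2780 at 54.6.

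SLPI lies in the same cluster of whey acidic protein genes on chromosome 20 as WFDC2 and had 1 promoter and 1 distal window. The promoter window, chr20:43883101-43884100, held 0.40, 0.27 and 0.38 FPKM in A2780 and 0.45, 0.42 and 0.34 in CP70, from 6 to 23 reads per library. It held 2.02, 1.62 and 1.10 FPKM in PEA1, 4.18, 2.77 and 4.30 in PEA2, 2.43, 2.27 and 2.90 in PEO1 and 3.60, 3.94 and 3.79 in PEO4. Both resistant serous lines led, PEO4 and PEA2 did not differ, and both were above PEO1, which was above PEA1 (range 3.12, adjusted p = 3.78e-22). By percentile PEA2 came first at 87.6 and PEO4 second at 70.3, and PEO1, at 44.3, fell below PEA1 at 60.2. The distal window, over the body of the gene, had the same order of line means.

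LCN2 differed less. Its window at the canonical start, chr9:130911301-130912300, held 3.72, 4.85 and 4.73 FPKM in PEO4, 2.86, 2.08 and 3.28 in PEA2, 1.92, 3.05 and 1.56 in PEO1, 2.24, 1.40 and 1.53 in PEA1, 1.21, 1.20 and 1.51 in CP70 and 0.96, 0.68 and 0.76 in A2780. PEO4 was above PEA2, neighbours among PEA2, PEO1, PEA1 and CP70 did not differ, and CP70 was above A2780 (range 2.34, adjusted p = 1.29e-12). The promoter window just upstream spanned 1.62 and did not differ by the threshold used. A distal window 4.57 kb downstream of the start, beyond the end of the gene, had another order, with PEA2 at 2.22 ± 0.205 FPKM and CP70 at 1.84 ± 0.505 highest and PEO1 at 0.40 ± 0.285 lowest (SD, n = 3). The highest value among the 7 windows, 11.8 ± 1.83 FPKM in PEO4, was at the promoter of the neighbouring gene BBLN.

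MUC1 was highest in another line. Its leading promoter window, mostly upstream of the start, chr1:155162701-155163700, held 7.75, 8.19 and 5.95 FPKM in PEA1, 5.30, 3.77 and 3.98 in CP70, 4.67, 3.81 and 4.13 in PEA2, 4.65, 4.80 and 2.79 in PEO1, 3.17, 2.97 and 2.18 in A2780 and 2.21, 1.87 and 1.84 in PEO4. PEA1 was above all other lines and PEO4 below all others at adjusted p below 0.05, with a range of 1.83 (adjusted p = 3.26e-10), which is under the threshold of 2. Here the range of line means widened to 2.68 after centring, unlike at the leading promoter windows of the other 6 genes. By percentile the window stood at 98.9 in PEA1, 93.7 in A2780, 93.8 in CP70, 90.8 in PEA2, 65.2 in PEO1 and 43.9 in PEO4. A2780 and CP70, lowest at WFDC2 and SLPI, thus had MUC1 among their most accessible windows. The ratio of this window to the median of the 7 distal MUC1 windows was 3.84 ± 0.344 (SD, n = 3) in PEA1, 4.16 ± 0.205 in PEA2, 1.90 ± 0.252 in A2780, 1.95 ± 0.358 in CP70 and 2.37 ± 0.717 in PEO4, and it ranged from 3.57 to 9.20 in PEO1. Most of these 7 distal windows had no PEO library above 2 FPKM, so selection on level favoured a lower distal median in the PEO lines.

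The promoter windows of SLC34A2 were higher in the sensitive than in the resistant line of both serous pairs. The window just upstream of its canonical start, chr4:25656301-25657300, held 3.11, 3.05 and 2.73 FPKM in PEA1 against 1.10, 0.81 and 1.02 in PEA2, and 4.25, 3.58 and 3.23 in PEO1 against 0.99, 1.15 and 1.30 in PEO4. It held 0.56, 0.81 and 0.88 FPKM in A2780 and 0.45, 0.30 and 0.84 in CP70. The libraries of PEA1 and PEO1 were all above those of the other 4 lines, PEO1 and PEA1 did not differ from each other, and neither did neighbours among the rest (range 2.67, adjusted p = 1.10e-15). The window over the start itself (chr4:25657201-25658200) had means of 4.17 in PEO1, 2.23 in PEA1, 1.92 in PEO4, 1.07 in PEA2, 0.68 in CP70 and 0.64 in A2780. An intronic window 3.37 kb upstream of that start, inside a longer transcript, was highest in PEO1 at 7.19 ± 0.844 FPKM (SD, n = 3).

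**Figure D3:**
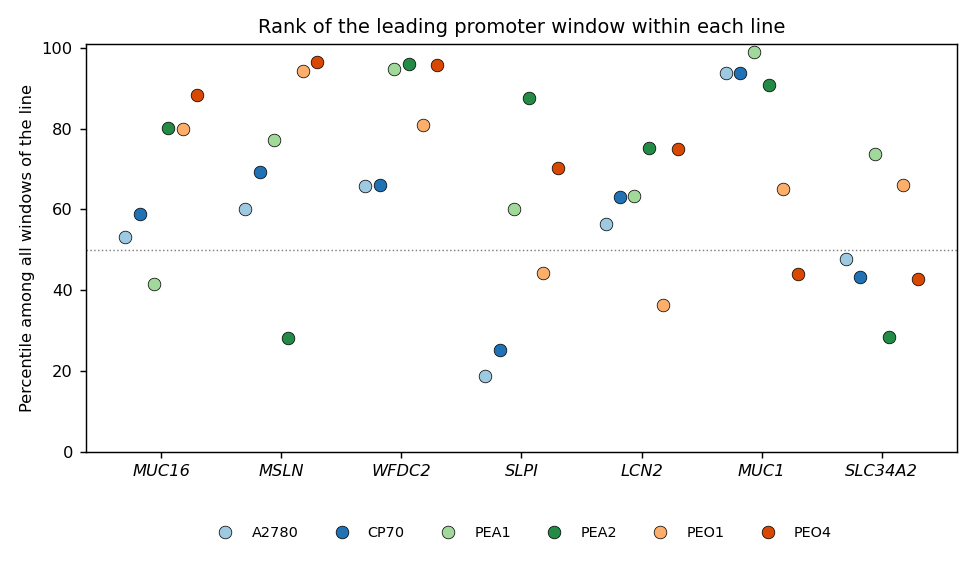
Percentile of the leading promoter window of each gene among the 89428 windows of each line (one point per line, from the mean of 3 libraries); the dotted line marks the median window. MUC1 stands at 90.8 or higher in A2780, CP70, PEA1 and PEA2 and at 43.9 in PEO4, while MSLN stands at 94.2 and 96.4 in the PEO lines and at 28.2 in PEA2.

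The study's main comparison was of the resistant with the sensitive line of each pair. A call needed a log2 fold change beyond 2 in either direction and an adjusted p below 0.001, and a window was said to have changed at an adjusted p below 0.05, both from limma on the 6 libraries of the pair. The median change of all windows tested was 0.59 in CP70, 0.31 in PEA2 and −0.30 in PEO4, so changes are read against those values.

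In CP70 against A2780, 33 of the 49 windows passed the filter of a mean above 1 FPKM. None was called, where 0.797% of all windows tested were. At adjusted p below 0.05, 13 were higher in CP70 and 0 lower, against 47.5% and 2.29% of all windows. The median change of the 33 was 0.56, close to the 0.59 of all windows, and after centring each library on its median 0 of the 33 changed, where 12.6% of all windows were then higher and 5.09% lower. The count of 13 rested on single libraries, as it was 1 without A2780 replicate 3, 4 without A2780 replicate 2, 6 without CP70 replicate 2, 8 without CP70 replicate 3 and 20 without CP70 replicate 1. The MSLN promoter window had a log2 fold change of 0.80 (SE 0.266, adjusted p = 0.00956), which was 0.44 after centring (adjusted p = 0.206). The windows of MUC16, SLC34A2 and SLPI were all too low to test in this pair.

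In PEA2 against PEA1, 45 windows were tested, and 9 rose and 28 fell at adjusted p below 0.05, against 43% and 21.4% of all windows. Their median change was −0.83. MSLN accounted for 16 of the 28, since all 16 of its tested windows fell, and MUC1 for 9. Of these, 6 MSLN and 3 MUC1 windows passed 2 FPKM in at least 2 libraries only with the help of the PEA1 libraries, so their lower value in PEA2 was favoured by the selection of the table. The windows called numbered 2, both lower and both at MSLN, against 1.42% of all windows called lower, and both were among those 6. The window at chr16:813601-814600, over exons of MSLN, fell from 2.60 ± 0.143 to 0.53 ± 0.145 FPKM (SD, n = 3) with a log2 fold change of −2.13 (SE 0.265, adjusted p = 8.18e-15). The window at chr16:822601-823600, beyond the gene and over MSLNL, fell from 2.23 to 0.56 FPKM with a change of −2.09 (SE 0.280, adjusted p = 6.30e-13), and held from 2 to 17 reads in the PEA2 libraries. Without PEA1 replicate 1 the count of calls was 1, without PEA2 replicate 3 it was 3, and with a pseudocount of 1 it was 0.

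The MSLN windows moved with their surroundings in this pair. The 514 windows tested in the 5 Mb at the start of chromosome 16 had a median change of −1.81, and the MSLN windows a median of −1.59. With the 5 Mb median removed the MSLN promoter window turned from −1.13 (SE 0.244, adjusted p = 1.05e-05) to 0.68 (adjusted p = 0.00798), and over all 45 windows 13 were higher and 4 lower, against 26.2% and 20.7% of all windows. Median centring gave 6 and 33, against 34.5% and 37.1%. DNA copy number was not measured here, and its part in these falls was not tested. The falls at MUC1 and SLC34A2 stood beside smaller shifts of their 5 Mb bins, −0.42 and −0.49.

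Of the 11 promoter windows tested in PEA2, 4 rose and 4 fell. Of all canonical promoter windows tested, 17.6% were higher and 35.8% lower. The 4 that rose were among the 6 tested at MUC16, SLPI, LCN2 and WFDC2. MUC16 rose by 1.58 (SE 0.242, adjusted p = 3.28e-10) at the upstream start, while its 5 Mb bin was at −0.32. SLPI rose by 1.21 (SE 0.232, adjusted p = 6.50e-07) at the promoter and by 1.41 at the distal window, with a bin median of 0.59. LCN2 rose by 0.64 (SE 0.234, adjusted p = 0.0111) at its start, although the libraries of the lines overlapped and the call was lost after median centring (0.27, adjusted p = 0.215), and by 1.53 at the downstream window, where they did not overlap. The upstream LCN2 promoter window had a change of 0.22 (adjusted p = 0.457). WFDC2 rose by 0.91 (SE 0.236) in the upstream window, but with its bin median, also 0.59, removed the change was 0.32 (adjusted p = 0.289), and at the start it was 0.24 (adjusted p = 0.359). SLC34A2 fell by 1.52 (SE 0.242, adjusted p = 1.68e-09) and 0.99 in its promoter windows, the second of which was −0.50 (adjusted p = 0.0769) with the bin median removed, and its intronic window had a change of −0.25 (adjusted p = 0.361). MUC1 fell by 0.77 (SE 0.229, adjusted p = 0.00160) in the promoter window centred 494 bp upstream of its start, which was −0.35 (adjusted p = 0.186) with the bin median removed, and the window centred 406 bp downstream had a change of −0.22 (adjusted p = 0.435).

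In PEO4 against PEO1, 32 windows were tested, none was called against 8.49% of all windows, and 14 rose and 8 fell, against 21.9% and 45.8% of all windows. The split was 20 and 6 after median centring, against 35.2% and 31.4% of all windows, and 7 and 7 with the 5 Mb median removed, against 24.3% and 25.7%. WFDC2 rose in all 3 of its windows, by 1.09 (SE 0.118, adjusted p = 3.34e-10) at the start, 1.19 in the upstream window and 0.80 in the gene. With its bin median of 0.51 removed, the median change of the 3 windows was 0.58. All 5 tested LCN2 windows rose, including the pair at the BBLN promoter, and the change was 1.04 (SE 0.200, adjusted p = 2.24e-05) at the start, beside a bin median of 0.80, and the change at the start was 0.24 (adjusted p = 0.421) with that median removed. SLPI rose by 0.56 (SE 0.177, adjusted p = 0.00530) at the promoter and by 1.30 at the distal window, and the promoter change was 0.05 (adjusted p = 0.857) with the bin median of 0.51 removed.

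SLC34A2 and MUC1 fell in PEO4. All 3 SLC34A2 windows fell, by 1.60 (SE 0.214, adjusted p = 3.53e-08) and 1.09 in the promoter windows and by 1.12 in the intronic window, beside a bin median of −0.69, and all 3 tested MUC1 windows fell, by 0.98 (SE 0.200, adjusted p = 5.38e-05) in its leading promoter window and by 1.76 at most, beside a bin median of −0.08. With the bin medians removed, the median change was −0.43 for the SLC34A2 windows and −0.89 for the MUC1 windows. The MSLN promoter window had a change of 0.22 (SE 0.112, adjusted p = 0.0832). The MUC16 promoter window rose by 0.35 (SE 0.128, adjusted p = 0.0166), and with the 5 Mb median removed its value was −0.03. The leading distal window of MUC16 fell by 0.51 (SE 0.138, adjusted p = 0.00134), and its value was −0.89 with the 5 Mb median removed and −0.17 (adjusted p = 0.258) after median centring.

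**Figure D4:**
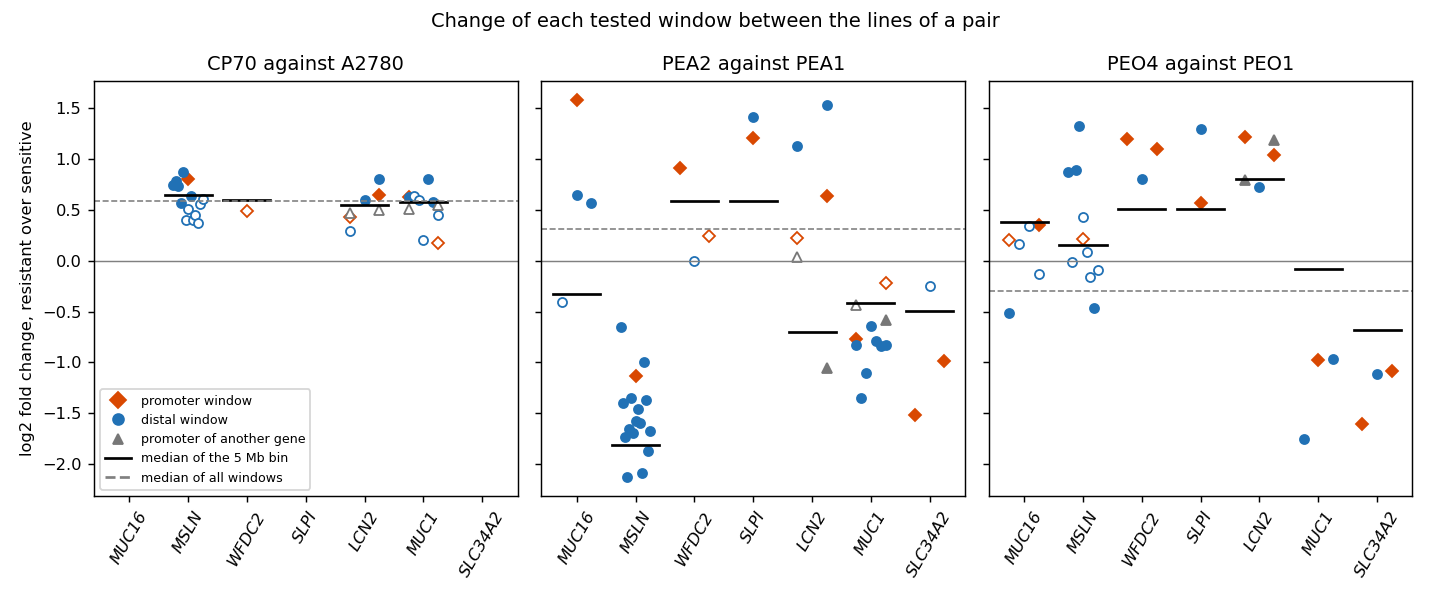
Log2 fold change of the resistant over the sensitive line for every tested window of the 7 genes in the 3 pairs (33, 45 and 32 windows); filled symbols passed adjusted p below 0.05, black bars give the median of the 5 Mb bin and the dashed line that of all windows tested. In the PEA pair all 16 MSLN windows lie below 0, with a median of −1.59, and most lie above their bin median of −1.81. SLC34A2 and MUC1 lie below 0 and SLPI above 0 in both serous pairs.

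The pairs were then compared with one another. Of the 28 windows tested in both serous pairs, 14 changed in both: 5 rose in each resistant line (17.9%), 6 fell in each (21.4%) and 3 went opposite ways (10.7%). Over all 55579 windows tested in both, 3.87% were higher in both, 4.89% lower in both and 31.6% opposite. The 5 that rose were at LCN2, MUC16, SLPI (both of its windows) and WFDC2, and adjoining windows of a gene are not independent. With the 5 Mb median removed, the LCN2, MUC16, SLPI and WFDC2 promoter changes in PEO4 and the WFDC2 change in PEA2 were smaller, as given above. The difference between the changes (PEO minus PEA, limma over 12 libraries) was −0.09 (SE 0.309, adjusted p = 0.817) for the upstream promoter window of SLC34A2, −0.20 (SE 0.278, adjusted p = 0.527) for the leading MUC1 promoter window and −0.64 (SE 0.301, adjusted p = 0.0546) for the SLPI promoter. It was 0.85 (SE 0.233, adjusted p = 0.00131) for the WFDC2 start. Over the 3 pairs together, with means per line and a term for the pair in limma, 0 of 48 windows passed the adjusted threshold, as did 0% of all 74141 windows. Before adjustment 2 windows were under 0.05, against 1.38% of all windows, namely the upstream promoter window of SLC34A2 at −1.21 (SE 0.536) and the distal SLPI window at 1.21 (SE 0.544). With 3 pairs, 15 windows could be tested in every pair and 4 of them had the same sign in all. Signs in 3 pairs can agree by chance, and the share of all windows is not given here. That count is therefore not read as a trait of the members.

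Other genes of the same kinds were read at the window of their canonical start, from lists of known genes. Of all canonical promoter windows tested, 17.6% were higher, 35.8% lower and 1.83% called in PEA2, and 26.4% were higher, 30.9% lower and 1.07% called in PEO4. Of 28 other surface and secreted markers of ovarian cancer, 22 had that window in the table. In PEA2, 13 of 19 tested rose, 3 of them past the threshold for a call, where 11.2% of all windows were called higher, and 3 fell. The 3 called were PRSS8, the serine protease prostasin, from 0.55 to 6.29 FPKM (log2 fold change 3.33, SE 0.237, adjusted p = 2.89e-42), VTCN1, the T-cell inhibitory ligand B7-H4, from 0.59 to 3.16 (2.25, SE 0.253), and MUC4, another membrane mucin, from 0.68 to 2.92 (2.07, SE 0.254). In PEO4, 2 of 21 rose and 10 fell, and PROM1, which encodes the surface protein CD133, was called lower, from 9.94 to 1.92 FPKM (−2.34, SE 0.163, adjusted p = 5.30e-15). EPCAM, the epithelial adhesion molecule, held 0.74, 1.18, 1.10 and 2.09 FPKM in A2780, CP70, PEA1 and PEA2 and 11.3 and 10.5 in PEO1 and PEO4, a distribution with the same 2 leading lines as MSLN. PEO1 was the highest line by FPKM in 47.0% of all windows and PEO4 in 26.8%. Sharing these leading lines thus does not mark EPCAM and MSLN as alike.

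Lineage genes differed in the same pairs. Of 20 genes of epithelial and Mullerian lineage, 11 of 16 tested rose and 3 fell in PEA2, and 10 of 18 rose and 5 fell in PEO4. The splicing regulator ESRP1 was called higher in PEA2, from 1.34 to 6.18 FPKM (2.10, SE 0.229), and the epithelial ETS factor EHF was called lower in PEO4, from 3.66 to 0.72 (−2.16, SE 0.285). CDH1, which encodes E-cadherin, went from 1.01 to 2.44 FPKM in PEA2 (1.21, adjusted p = 2.78e-06). Of 10 mesenchymal genes, 5 of 9 tested fell and 1 rose in PEA2. VIM, which encodes vimentin, was called lower there, from 10.2 to 1.60 FPKM (−2.58, SE 0.227, adjusted p = 2.93e-28), although its change was −1.07 with the 5 Mb median removed, and ZEB1, a repressor of epithelial genes, fell by 1.30 (SE 0.228). Of 12 mesothelial, fibroblast and leukocyte genes, 4 were in the table, and DCN, LUM, COL1A1 and PTPRC were among those without a window. The 10 housekeeping promoters had median values of 2.49, 4.17, 4.48, 2.97, 12.3 and 13.9 FPKM in A2780, CP70, PEA1, PEA2, PEO1 and PEO4, the same order of lines as at the MSLN promoter, and 0 of 10 rose and 5 fell in PEA2.

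The genes whose canonical promoter window was most like each marker over the 6 line means were named by Pearson's r of log2(FPKM + 0.1). MSLN was nearest to POLR2K and AKIRIN1 (r = 1.00 for both), and 25.3% of 12786 promoters had r above 0.95 with it. SLC34A2, at the window over its start, was nearest to AK5 and HOXC5 (both r = 1.00), SLPI to SLC4A10 and SYT17 (r = 0.99), WFDC2 to RP1L1 and DCDC2 (r = 0.99) and LCN2 to L3MBTL1 and TOX2 (r = 0.99). For these 4 genes between 0.428% and 1.25% of promoters passed 0.95. Each r rests on 6 points that share the scale of their libraries, and is a description. MSLN differed from the housekeeping promoters by rank, since their median percentile was 91.9, 93.1, 93.2 and 79.0 in A2780, CP70, PEA1 and PEA2, where the MSLN window stood at 60.2, 69.2, 77.2 and 28.2.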

How the data were processed

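ATAC-seq reads of 18 libraries were aligned to hg19 with Bowtie2 by the authors, keeping only reads that aligned uniquely, with duplicates removed with Picard. The authors counted reads in windows of 1000 bp across the genome and deposited 89428 of them as FPKM, which equals RPM here because all windows have this length, and whole reads were recovered for 100% of values (tolerance 0.01 read). Every deposited window exceeded 2 FPKM in at least 2 libraries, so the table is a subset selected on level. All sample columns were mapped, leaving 0 unmapped. Implied totals ran from 8972042 to 60495462 reads per library, and 5 to 364 reads lay behind each value of a promoter window.

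Values were tested as log2(FPKM + 0.1) with limma 3.58.1 in R 4.3.3 (lmFit, eBayes with trend, Benjamini-Hochberg adjustment) on windows with a mean above 1 FPKM. Fold changes on this scale understate the change of low windows. The study's voom weights and upper depth limit were not applied. Scripts were tested on simulated data. The members and gene lists were chosen with earlier results of these data known. Windows named in the text are the promoter windows and the leading distal window of each gene, up to 3 called windows per pair and direction, the 2 promoters most like each gene, and, from related lists, called genes and PAX8, EPCAM, CDH1, VIM, ZEB1 and PTPRC. Other genes were named after their values were seen. Alternatives were median centring, quantile normalization, removal of the 5 Mb median, a pseudocount of 1, no filter, edgeR 4.0.16 on the recovered reads, other flanks, a replicate block and leaving out each library. Some upstream sequences are not reported here.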

Additional observations from a re-analysis of the deposited data

Results flagged for a closer look

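The change between the lines of a pair differed from that of another pair at an adjusted p below 0.001 (limma) in 9 cases among the named windows. These were the 12 promoter windows and the leading distal window of each of the 7 genes, where high enough to test. For the PEA pair minus the A2780 pair the difference in log2 fold change was −1.94 (SE 0.352) at the MSLN promoter window and −1.40 (SE 0.347) at the MSLN window 666 bp downstream. It was −1.40 (SE 0.351) at the leading MUC1 promoter window and −1.70 (SE 0.346) at the MUC1 window 1.39 kb upstream. In this comparison 30.9% of all windows passed the same threshold. For the PEO pair minus the A2780 pair it was −1.61 (SE 0.307) and −1.56 (SE 0.314) at the same MUC1 windows and −1.73 (SE 0.299) at the intronic SLC34A2 window, where 20% of all windows passed. For the PEO pair minus the PEA pair it was −1.24 (SE 0.269) at the MUC16 promoter window chr19:9120601-9121600 and 1.35 (SE 0.254) at the MSLN promoter window, where 47.6% passed. The MUC16 difference was −0.53 after median centring (adjusted p = 0.0639), and the MSLN difference was 2.06. These comparisons share pairs, so the 9 values are not independent. Such differences were common over the whole table, so the 9 cases do not set these windows apart.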

How the results depend on the processing

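Of 565 values of 44 results under the alternatives, 482 kept their direction and side of the threshold, 40 lost the threshold, 16 gained it and 27 turned direction, and the causes were not tested. The 13 windows changed in CP70 became 0 under median centring, quantile normalization and removal of the 5 Mb median, 8 without the filter, 8 with the replicate block and 63 with a flank of 50 kb, and 1 to 20 when a library was left out (1 without A2780 replicate 3, 4 without A2780 replicate 2, 6 without CP70 replicate 2, 8 without CP70 replicate 3, 20 without CP70 replicate 1). The 2 called in PEA2 became 7 under centring, 10 under quantile normalization, 1 (higher) with the 5 Mb median removed, 0 with a pseudocount of 1, 1 with edgeR, 1 with no flank, 38 with 50 kb and 1 to 3 when a library was left out (1 without PEA1 replicate 1). The 37 changed in PEA2 became 17 with the 5 Mb median removed, 21 with no flank, 115 with 50 kb and 32 to 35 without a library. In PEO4 the 0 called became 3 with 50 kb, and the 22 changed became 14 with the 5 Mb median removed, 13 with no flank, 57 with 50 kb and 20 to 23 without a library. The 31 that differed over 6 lines became 9 with a pseudocount of 1, 20 with no flank, 90 with 50 kb and 30 to 32 without a library. Of all windows in the A2780 pair, 9.58% were higher and 10.9% lower under quantile normalization. With the 5 Mb median removed the shares were 1.73% and 3.29%. Other shares of all windows are given above or not at all, and a flank of 50 kb takes in more windows. Counts without a share cannot show whether the members moved more than the table. Deviations of same-numbered replicates had correlations from −0.41 to 0.045, which cannot show whether the numbers pair the libraries. In the PEO pair they were 0.016, 0.045 and 0.038, each above the highest with a different number (−0.0041, −0.0068 and −0.0093). With the replicate block the counts changed were 8, 36 and 23 and the 6-line count was 31.

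Directions turned with the 5 Mb median removed for LCN2 chr9:130910401-130911400 in CP70 (−0.12), the MSLN promoter (0.68) and MSLN 666 bp downstream (1.16) in PEA2, MUC1 chr1:155161801-155162800 in CP70 (−0.40) and PEA2 (0.20), MUC16 chr19:9121501-9122500 (−0.18) and chr19:9120601-9121600 (−0.031) in PEO4, intronic SLC34A2 in PEA2 (0.25), the WFDC2 start in CP70 (−0.11) and PEA2 (−0.35) and WFDC2 1.21 kb into the gene in PEA2 (−0.59). Under median centring they turned for that LCN2 window in PEA2 (−0.15), MSLN downstream in PEO4 (0.33), MUC1 in CP70 (−0.19) and the WFDC2 start (−0.13) and gene window (−0.37) in PEA2. Under quantile normalization the values were −0.23 for LCN2 in PEA2, 0.10 for MSLN downstream in PEO4, −0.0056 for the MUC1 window 1.39 kb upstream and −0.39 for MUC1 chr1:155161801-155162800 in CP70, and −0.16 for the WFDC2 gene window in PEA2. That WFDC2 window was also −0.00090 with a pseudocount of 1, −0.022 with edgeR, and from −0.14 without PEA1 replicate 3 to 0.077 without PEA1 replicate 1 (−0.06 without PEA2 replicate 1), and MSLN downstream in PEO4 was 0.13 without PEO1 replicate 2 and 0.07 without PEO4 replicate 3. Values rest on few reads in the low windows, and 33, 45 and 32 of the 49 windows passed the filter in the A2780, PEA and PEO pairs.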
